A study of Mus musculus with 86 samples.

Results

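The comparison asked whether isoproterenol, an agonist of beta-adrenergic receptors, shifted heart transcripts differently in the line that the labels call B2KO than in the inbred line FVB. It was computed as the treated minus untreated difference in B2KO minus the same difference in FVB, and is called the difference between the lines' responses. It rested on 40 of the 86 arrays of the series: 10 untreated FVB, 11 treated FVB, 10 untreated B2KO and 9 treated B2KO mice. Treated mice received 120 µg/g/day for 14 days and untreated mice received none. A further 43 arrays of C57BL/6 and B6129SF2/J mice entered only the estimate of the spread. Left out were treated B2KO replicate 10, which failed (median correlation with the arrays used 0.560), treated B2KO replicate 9, a copy of replicate 4, and treated FVB replicate 2, which carries C57BL/6 strain markers. The labels give neither the age of the mice nor the strain background of B2KO, and they do not explain its name. Line and background cannot be told apart here. Per the study's description, both lines developed impaired contraction under catecholamine infusion.

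Beta-adrenergic receptors raise cyclic AMP in heart muscle cells, which strengthens and speeds the beat. When the stimulation is sustained, hearts are known to enlarge, fibroblasts lay down collagen and other matrix proteins, macrophages enter, and connective tissue and other non-muscle cells divide. RNA of whole heart mixes all of these cells, so fewer cells of a type and less RNA per cell cannot be told apart.

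The values were log2 levels relative to the median of each array, so 0 is that median, and a difference of 1 is a doubling. All 12 cardiomyocyte markers were above the array median in at least 1 group. Arrays had a median correlation with the others of 0.884 to 0.963, apart from untreated B2KO replicate 8 at 0.748, in which the 3′ probe set of Gapdh exceeded the 5′ one by 7.31 (all groups' medians lay between −0.17 and −0.06), a sign of degraded RNA. The difference was 2.06 in untreated FVB replicate 10 and 1.77 in untreated B2KO replicate 1, the only array of a female by its transcripts among these 40, and at most 0.39 in the others. All 3 arrays are untreated, so this sign moved with treatment. Without them 0 genes passed for the difference between the lines, Top2a was at −2.80, Dio2 at −1.78 and Cngb3 at 2.09, and 830 genes changed in FVB and 61 in B2KO. In 4 arrays the transcript of Rag1, the recombinase made in developing lymphocytes, stood above 2: treated FVB replicates 1, 6 and 7 at 4.62, 7.01 and 3.50 and untreated B2KO replicate 5 at 5.87. The other 36 arrays ran from −2.43 to 1.22. Summed linear levels of 11 thymocyte genes, listed after these values were seen, were 54.6 to 537 in those 4 arrays and 14.2 to 31.2 in the others. Values without these arrays are given below where they end a main call or move a main value by over 1.5 times, and not for every value printed.

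No gene passed the test for a difference between the lines' responses. Among 11449 genes, 0 had a limma adjusted p under 0.05, and the smallest was 0.310. At an unadjusted p under 0.05 there were 705 genes (6.16% of those tested), 569 lower in B2KO (4.97%) and 136 higher (1.19%). That split depended on scaling. Over all genes tested the median difference was −0.11, and the split became 423 lower and 477 higher once each array was centred on its own genes (median 0.01). It was 524 lower and 554 higher after quantile normalization. The median SE of a gene's difference was 0.32, which gives a 95% interval of ± 0.63. For 7495 genes (65.5%) that interval lay wholly within ± 1, and for 98.4% within ± 2. The mean SD within groups was 0.37 to 0.56 in C57BL/6 and B6129SF2/J, which enter the pooled spread, and 0.49 to 0.63 in FVB and B2KO. With the 4 groups of FVB and B2KO alone the smallest limma adjusted p was 0.630.

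Much of the response was shared. In FVB 576 genes (5.03%) changed under isoproterenol, 370 up (3.23%) and 206 down (1.8%). In B2KO 59 genes (0.515%) changed, 19 up (0.166%) and 40 down (0.349%). Of the 370 genes that rose in FVB, 307 (83.0%) had a difference above 0 in B2KO, where 38.8% of all genes did. Their median was 0.92 in FVB, the line in which they were chosen, and 0.30 in B2KO. Of the 206 that fell in FVB, 197 (95.6%) lay below 0 in B2KO, against 61.2% of all genes, with medians of −0.82 and −0.51. Chosen the other way round, all 19 genes that rose in B2KO lay above 0 in FVB, where 52.6% of all genes did. Their medians were 1.49 in B2KO and 1.26 in FVB. Of the 40 that fell in B2KO, 37 lay below 0 in FVB, against 47.4% of all genes. No gene changed in opposite directions, and 1 did with array weights and 1 with centring without the arrays in doubt. Across all genes the FVB and B2KO differences, which share no array, had a Pearson r of 0.47, given as a description because genes are not independent replicates. The number of changed genes moved with the arrays used: without treated B2KO replicate 5 there were 160 in B2KO and without replicate 7 there were 107, while without replicate 2 there were 24. Treated B2KO replicates 5 and 7 lay within or below the untreated B2KO range at several genes that changed in both lines. They had 5.97 and 4.70 at Postn, 0.75 and 1.06 at Timp1 and −0.31 and −1.24 at Tnc. At Lgals3 they had 1.78 and 1.63, and at Acot1 2.55 and 2.90. At Retnla and Cacna1g replicate 7 lay below all untreated B2KO arrays (2.10 and 0.21). Group means in B2KO thus do not describe every treated heart alike, and the cause was not tested. Without the 4 arrays with Rag1 above 2, 386 genes changed in FVB and 81 in B2KO.

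**Figure D1:**
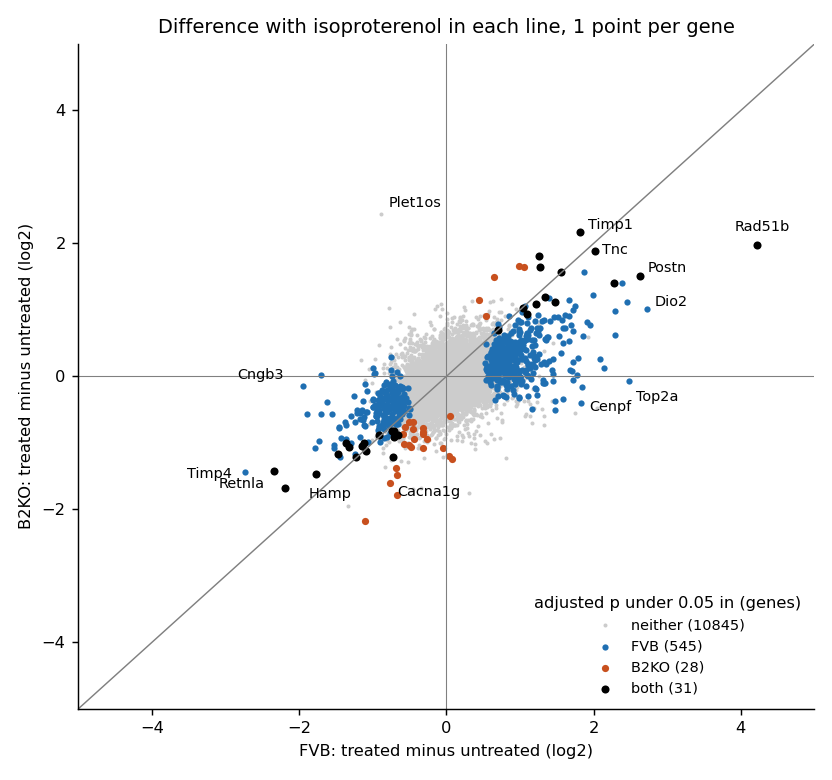
Each point is 1 gene, with the treated minus untreated difference in FVB on the x axis and in B2KO on the y axis, both in log2; colours give the line in which limma's adjusted p was under 0.05. The diagonal marks an equal response; of the genes that changed in both lines, Rad51b and Postn lie below it and Timp1 above it, and Top2a and Cenpf lie near 0 on the B2KO axis.

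Changes in both lines with the same sign were found for 31 genes, 14 up and 17 down. Their difference between the lines ran from −2.23 to 0.92 with a median of −0.01, and 4 of the 31 had an unadjusted p under 0.05, as 6.16% of all genes did. The rising ones included secreted products of stressed fibroblasts and macrophages. Timp1, an inhibitor of matrix metalloproteinases, had a lowest, median and highest level of −0.03, 1.75 and 3.86 in untreated and 2.61, 3.77 and 4.49 in treated FVB. In B2KO the same values were −0.44, 0.96 and 1.67 untreated and 0.75, 3.41 and 4.90 treated. Groups overlapped in both lines, with 4 of 11 treated FVB arrays and 7 of 9 treated B2KO arrays above the highest untreated one. Timp1 rose by 1.82 ± 0.37 (SE) in FVB and 2.17 ± 0.39 in B2KO, and the difference between the lines was 0.35 ± 0.54. Lgals3, the galectin of activated macrophages, rose by 1.56 ± 0.33 and 1.57 ± 0.35. The matricellular protein gene Tnc rose by 2.02 ± 0.34 and 1.89 ± 0.36, and the chemokine gene Ccl8 by 1.26 ± 0.37 and 1.81 ± 0.39. Without the 4 arrays with Rag1 above 2 the rise of Ccl8 in FVB did not pass (limma adjusted p = 0.104). For these 3 the 95% interval of the difference between the lines was −0.94 to 0.97, −1.12 to 0.86 and −0.51 to 1.61, so the interval held values close to a doubling or past it. Among the falling genes, Hamp, which encodes the iron hormone hepcidin, fell by 1.77 ± 0.28 on the log2 scale in FVB and 1.47 ± 0.30 in B2KO. Retnla, a secreted product of alternatively activated macrophages, fell by 2.19 ± 0.32 and 1.68 ± 0.33. Acot1, a thioesterase that releases fatty acids from coenzyme A, fell by 2.34 ± 0.27 and 1.43 ± 0.28.

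Genes of the cell division cycle led the list of smaller responses in B2KO. Of 24 tested, 15 rose in FVB, where 3.23% of all genes did, and 0 in B2KO, where 0.166% did, with median differences of 1.09 and 0.01. The difference between the lines was below 0 for 24 of 24, where 7226 of 11449 genes were, with a median of −1.06 against −0.11 over all genes. That count depends in part on the filter. Bub1b, Nusap1, Birc5, Tpx2, Plk1 and Aurkb had a mean above 0 only in treated FVB and were tested through it. Bub1, Aurka, Kif20a, Cenpe and Tyms fell below the filter. Of these, Tyms rose more in B2KO (means −0.59 and −0.29) than in FVB (−0.42 and −0.29), and the others leaned as the 24 did. None of the 24 passed the adjusted threshold, and 14 had an unadjusted p under 0.05, all lower, as 4.97% of all genes were. Centred on their own genes, the arrays gave a median of −0.94 and 12 genes. Stretches of 250 bases upstream of the annotated starts are shown for Top2a and Ccnb2, which are among these 24, and for Cenpf, a mitotic gene outside the list that was among the leading genes. They are from RefSeq on GRCm38.p6, 5′ to 3′, and capitals mark the letters CCAAT or their reverse complement ATTGG, the CCAAT box common before genes of the late cell cycle. The windows are chr11:99024190-99024439, chr9:70421555-70421804 and chr1:189688087-189688336, all on the minus strand.
Top2a: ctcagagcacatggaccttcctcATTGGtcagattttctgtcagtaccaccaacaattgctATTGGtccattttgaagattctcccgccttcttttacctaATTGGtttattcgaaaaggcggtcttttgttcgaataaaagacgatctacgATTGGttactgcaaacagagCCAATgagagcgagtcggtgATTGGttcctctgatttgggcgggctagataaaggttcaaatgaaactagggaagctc
Ccnb2: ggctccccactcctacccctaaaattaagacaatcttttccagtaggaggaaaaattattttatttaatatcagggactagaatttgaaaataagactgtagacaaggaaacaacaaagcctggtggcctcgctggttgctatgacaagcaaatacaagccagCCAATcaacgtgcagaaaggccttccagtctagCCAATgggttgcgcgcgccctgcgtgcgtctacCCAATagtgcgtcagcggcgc
Cenpf: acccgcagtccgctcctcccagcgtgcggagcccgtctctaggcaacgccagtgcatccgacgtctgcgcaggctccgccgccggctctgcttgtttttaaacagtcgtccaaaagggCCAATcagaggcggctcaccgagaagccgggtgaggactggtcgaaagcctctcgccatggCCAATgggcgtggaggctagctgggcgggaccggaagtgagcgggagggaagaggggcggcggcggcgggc
The letters occurred 6 times before Top2a, 3 times before Ccnb2 and 2 times before Cenpf. Of 20 such windows of 19 cell cycle genes tested, 18 (90%) held them at least once and 9 (45%) at least 2 times. Of all 32851 windows of this length, 33.8% and 10.1% did. TTTGAA or TTCAAA, the letters of the cell cycle genes homology region, were in 9 of the 20 windows (45%) and in 16% of all. A match of letters describes the window and is no binding site.

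Top2a, which encodes the topoisomerase that untangles DNA before mitosis, had the smallest p of all genes. Its lowest, median and highest levels were −1.62, −0.47 and 1.12 in untreated FVB and 0.77, 2.09 and 4.55 in treated FVB. In B2KO they were −1.16, 0.20 and 2.66 untreated and −1.46, 0.59 and 1.38 treated. In FVB 10 of 11 treated arrays lay above every untreated one, while in B2KO 0 of 9 did and the groups covered the same range. The difference was 2.48 ± 0.40 in FVB (limma adjusted p = 1.18e-05) and −0.07 ± 0.43 in B2KO, and between the lines −2.55 ± 0.59 (unadjusted p = 3.93e-05, limma adjusted p = 0.310). The array holds 2 dimmer probe sets of Top2a, both below the array median, at 0.23 ± 0.34 and 0.17 ± 0.43.

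Cenpf, whose product binds kinetochores and which is not one of the 24, separated treated from untreated FVB completely, with 2.77, 3.81 and 4.52 against 1.33, 1.89 and 2.36 (lowest, median and highest). In B2KO untreated arrays had 1.65, 2.32 and 2.83 and treated arrays −1.06, 3.06 and 3.50. There 5 of 9 treated arrays exceeded every untreated one and 2 lay below all of them, so the treated B2KO hearts were split and not uniformly low. The difference between the lines was −2.01 ± 0.50 (limma adjusted p = 0.310), and −1.60 without treated B2KO replicate 7, the lowest array. The 2 dimmer probe sets of Cenpf gave 0.28 ± 0.38 and 0.03 ± 0.44.

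Prc1, which bundles the microtubules of the dividing spindle, ran from 0.47 to 2.67 in treated FVB (median 1.21), above all untreated FVB arrays (−0.74 to 0.44, median −0.33). Untreated B2KO had −1.75 to 0.67 (median −0.00) and treated B2KO −1.60 to 0.93 (median 0.29), which overlapped. The difference between the lines was −1.49 ± 0.39, and a second, dimmer probe set gave −1.07 ± 0.42. For the mitotic cyclin gene Ccnb2 it was −1.93 ± 0.51, for the proliferation antigen gene Mki67 −2.02 ± 0.56 and for the mitotic kinase gene Cdk1 −1.76 ± 0.52. In FVB these 3 rose by 1.59, 2.14 and 1.77, and in B2KO their differences were −0.34, 0.12 and 0.01.

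**Figure D2:**
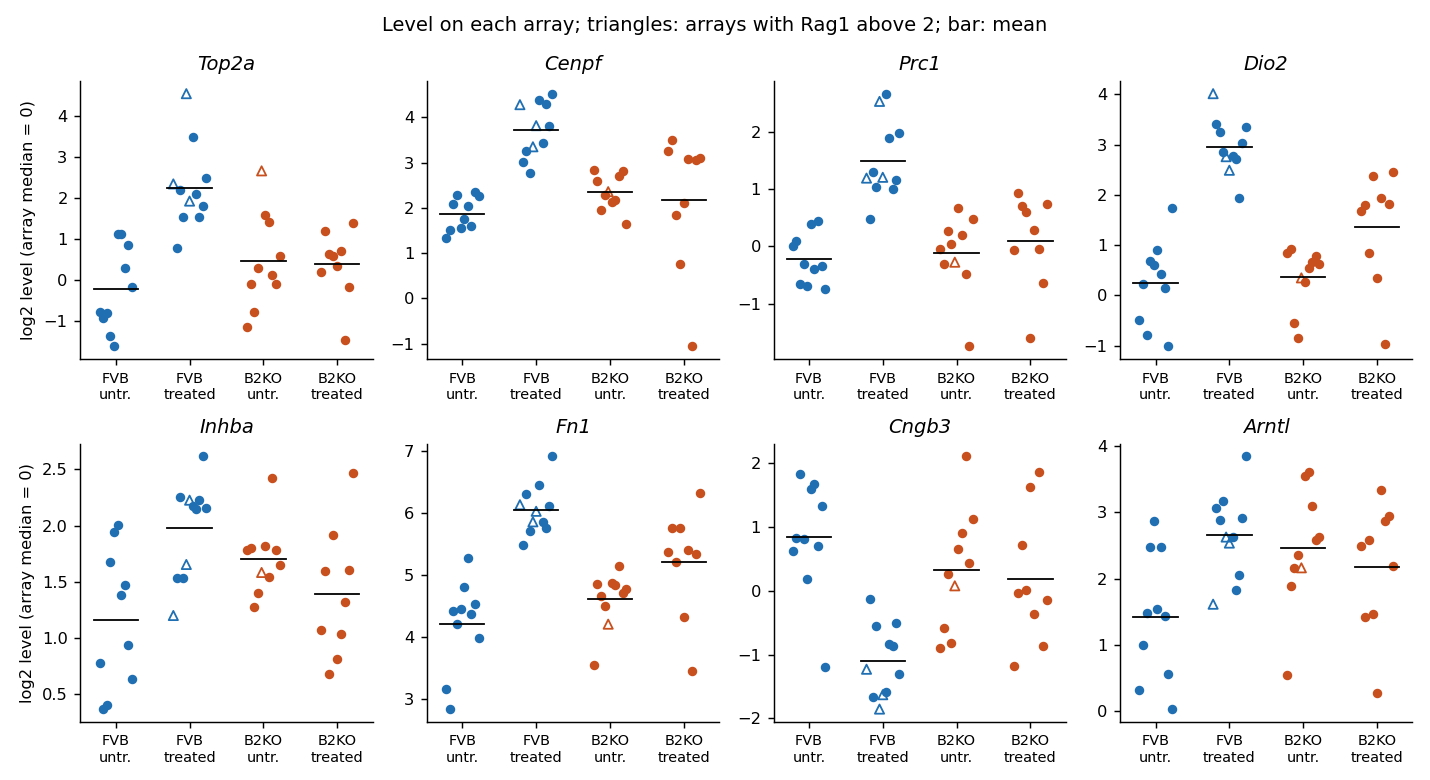
The y axis is the log2 level, relative to the array median, of 8 genes on each of the 40 arrays; horizontal bars are group means and open triangles mark the 4 arrays with Rag1 above 2. Treated FVB arrays of Cenpf, Prc1, Dio2 and Fn1 lie above all untreated FVB arrays, while treated and untreated B2KO arrays overlap in every panel.

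The arrays with thymocyte transcripts bear on this group, because 3 are treated FVB and 1 is untreated B2KO, the groups that enter the difference between the lines with a minus sign. The mean log2 level of the cell cycle genes ran from 0.99 to 3.59 in treated FVB, with the array highest in Rag1 at the top. Without the 4 arrays treated FVB ran from 0.99 to 3.04 (median 2.00), against 0.47 to 1.76 in untreated FVB, 0.76 to 1.47 in untreated and 0.30 to 1.69 in treated B2KO. The number of genes with an unadjusted p under 0.05 then fell from 14 to 9, the median difference moved from −1.06 to −0.72, and 9 of 23 genes tested rose in FVB in place of 15 of 24. All 23 still lay below 0. Top2a was at −2.04 ± 0.58, Cenpf at −1.97 ± 0.54, Prc1 at −1.46 ± 0.41, Ccnb2 at −1.55 ± 0.51 and Mki67 at −1.50 ± 0.56. Top2a ran from 0.77 to 3.48 in the 8 remaining treated FVB arrays and to at most 1.12 in untreated FVB. Erythroid transcripts moved in the same direction: Alas2, the haem synthesis enzyme of red cell precursors, rose by 2.29 ± 0.43 in FVB and differed by 0.98 ± 0.45 in B2KO. The summed level of 5 erythroid genes had medians of 24.6 and 127 in untreated and treated FVB and 37.1 and 72.1 in B2KO, and Hba-a1, Epb42 and Rhag were below the array median in all 4 groups. Its part in the cell cycle result was not tested.

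**Figure D3:**
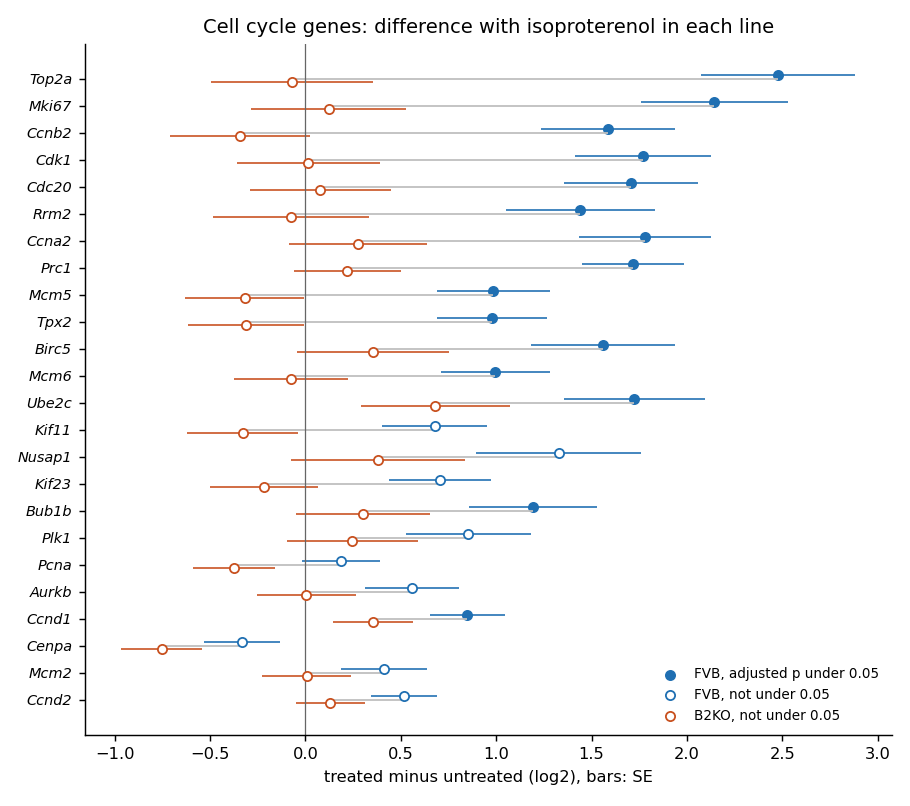
Treated minus untreated difference in log2 for the 24 cell cycle genes tested, FVB in blue and B2KO in orange, with bars of 1 SE; filled points have a limma adjusted p under 0.05. The B2KO point lies left of the FVB point in each row, and no B2KO point is filled.

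Dio2, the deiodinase that turns thyroxine into active thyroid hormone, was the leading gene outside cell division. The 250 bases before its annotated start, chr12:90739039-90739288 on the minus strand, are shown because this gene is induced through cyclic AMP in other tissues. Capitals mark TGACGTCA, the letters of the cyclic AMP response element, which reads the same on both strands and was in 508 of 32851 windows (1.55%).
Dio2: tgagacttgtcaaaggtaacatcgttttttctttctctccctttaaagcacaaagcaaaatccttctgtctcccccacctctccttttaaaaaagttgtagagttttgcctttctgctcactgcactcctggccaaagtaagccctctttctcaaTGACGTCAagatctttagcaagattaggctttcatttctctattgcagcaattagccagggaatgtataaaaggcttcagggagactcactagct
Its lowest, median and highest levels were −1.02, 0.33 and 1.73 in untreated FVB, 1.93, 2.85 and 4.02 in treated FVB, −0.86, 0.59 and 0.93 in untreated B2KO and −0.96, 1.81 and 2.45 in treated B2KO. All 11 treated FVB arrays were above every untreated one, and 6 of 9 treated B2KO arrays were. Dio2 rose by 2.72 ± 0.30 in FVB (limma adjusted p = 1.73e-10). In B2KO the difference was 1.01 ± 0.31 with an adjusted p of 0.123. Between the lines it was −1.71 ± 0.43 (limma adjusted p = 0.310), −1.66 ± 0.46 without the 4 arrays with Rag1 above 2 and −1.42 without treated B2KO replicate 7. A second probe set gave −1.10 ± 0.43 and the dimmest, below the array median, −0.02 ± 0.38.

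The other genes that led the smaller responses in B2KO had varied roles. Inhba, the subunit of the growth factor activin A, rose by 0.81 ± 0.21 in FVB, where levels were 0.37, 1.16 and 2.00 untreated and 1.20, 2.15 and 2.61 treated (lowest, median and highest). In B2KO they were 1.28, 1.72 and 2.42 untreated and 0.68, 1.32 and 2.47 treated. Untreated B2KO hearts thus lay above untreated FVB hearts in median, 4 treated B2KO arrays lay below every untreated one, and the difference between the lines was −1.13 ± 0.30. A second, dim probe set of Inhba gave 0.47 ± 0.33. The transcription factor gene Zfhx3 differed by −0.93 ± 0.25, with 9 of 11 treated FVB arrays and 1 of 9 treated B2KO arrays above all untreated arrays of their line. Of 5 other Zfhx3 probe sets the brightest, at nearly the same mean level (2.04 against 2.13), gave 0.10 ± 0.30, and the rest −0.38 to 0.39. Gpsm2, which orients the mitotic spindle, differed by −1.41 ± 0.38, and the retrotransposon-derived gene Rtl3 by −1.83 ± 0.49. The mean of Gpsm2 was above the array median only in treated FVB, the group through which it was tested. Arid5a, which encodes an RNA-binding protein of inflammation, differed by −1.45 ± 0.39 and the folate enzyme gene Aldh1l1 by −1.34 ± 0.37, and neither changed in FVB or B2KO at the adjusted threshold. A second, dim probe set of Aldh1l1 had the opposite sign, at 0.67 ± 0.38. Limma adjusted p for these 6 genes ran from 0.310 to 0.345.

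Thy1, a surface glycoprotein of T cells and fibroblasts, and Itgal, an integrin chain of leukocytes, differed by −1.85 ± 0.47 and −1.98 ± 0.52, and both rested in part on the 4 arrays. Thy1 reached 6.23 in treated FVB and 4.84 in untreated B2KO. Without those arrays its highest levels were 3.45 and 2.72, and its difference between the lines was −0.99 ± 0.39. That of Itgal was −1.28 ± 0.50. The unadjusted p of Thy1 then was 0.012 and that of Itgal 0.012, in place of 1.77e-04 and 2.77e-04. Neither gene then rose in FVB at the adjusted threshold (limma adjusted p = 0.054 for Thy1 and 0.104 for Itgal), as both had with all arrays. Of 5 lymphocyte markers tested, 1 had an unadjusted p under 0.05, Cd8a at −1.33 ± 0.65. Without the 4 arrays 4 were tested and 0 did.

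Many matrix and fibrosis genes rose in FVB, and most leaned the same way in B2KO, though few passed there. Of 47 tested, 33 rose and 1 fell in FVB, and 5 rose in B2KO (background 3.23%, 1.8% and 0.166% of all genes), with median differences of 0.99 and 0.60. In FVB 43 lay above 0 and in B2KO 42, where 6018 and 4441 of 11449 genes did. At an unadjusted p under 0.05, 38 were up in FVB and 26 in B2KO, against 1228 and 345 of all genes. The difference between the lines was below 0 for 39 of 47, where 7226 of 11449 genes were, with a median of −0.44 against −0.11 over all genes. At an unadjusted p under 0.05 there were 14 lower and 1 higher (4.97% and 1.19% of all genes), and 0 at the adjusted threshold. The median was −0.33 with arrays centred on their genes and −0.47 without the 4 arrays with Rag1 above 2, when 15 genes were lower. With quantile normalization 9 were lower and 18 genes of the list rose in B2KO in place of 5. Fn1, the adhesive matrix protein fibronectin, ran through 2.83, 4.40 and 5.27 in untreated and 5.48, 6.03 and 6.91 in treated FVB (lowest, median and highest), with no overlap. In B2KO it ran through 3.54, 4.74 and 5.14 untreated and 3.44, 5.37 and 6.32 treated, with 7 of 9 treated arrays above all untreated ones. The difference was 1.85 ± 0.25 in FVB and 0.60 ± 0.26 in B2KO, and −1.25 ± 0.36 between the lines (limma adjusted p = 0.383).

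Postn, the periostin of activated fibroblasts, rose in both lines, by 2.63 ± 0.28 in FVB and 1.52 ± 0.29 in B2KO. Its untreated levels were alike, 5.02, 5.74 and 6.48 in FVB and 5.14, 5.96 and 6.52 in B2KO. Treated levels were 7.93, 8.37 and 8.78 in FVB and 4.70, 7.61 and 8.67 in B2KO. In treated B2KO, replicates 5 and 7 stayed within the untreated range or below it at 5.97 and 4.70, and the other 7 lay above every untreated B2KO array. The difference between the lines was −1.11 ± 0.40, and −0.78 without replicate 7. The lines differed by −1.34 ± 0.46 in Sfrp2, a secreted Wnt modulator, −1.14 ± 0.38 in the collagen gene Col14a1 and −1.08 ± 0.38 in elastin, Eln. For the main fibrillar collagen genes Col1a1 and Col3a1 it was −0.92 ± 0.44 and −0.55 ± 0.29. Second probe sets gave −0.44 ± 0.33 for Col1a1 and −1.08 ± 0.47 for Col3a1. With the 4 arrays with Rag1 above 2 left out, Col1a1 was at −0.88 ± 0.47 (unadjusted p = 0.065) and Col3a1 at −0.68 ± 0.31 (unadjusted p = 0.033). Timp4, an inhibitor of metalloproteinases abundant in heart, was the 1 gene of the list that fell in FVB, by 2.73 ± 0.38. In B2KO the difference was −1.43 ± 0.40 (adjusted p = 0.0756), and between the lines 1.30 ± 0.56. In the 36 arrays without Rag1 above 2 it fell in B2KO as well (adjusted p = 0.0461 by limma). Timp1, Tnc, Thbs4 and Mfap5 belong to the same list and rose in both lines with differences of 0.35, −0.13, −0.13 and −0.36 between them. In those 36 arrays Thbs4 and Mfap5 did not pass in B2KO (limma adjusted p = 0.053 and 0.079). Fibroblast markers, 6 of 11 of which belong to this list too, moved with these genes: 5 of 11 rose in FVB and 1 in B2KO, and their summed level had medians of 2328 and 3060 in untreated and treated FVB and 2462 and 2643 in B2KO. Their part was not tested.

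**Figure D4:**
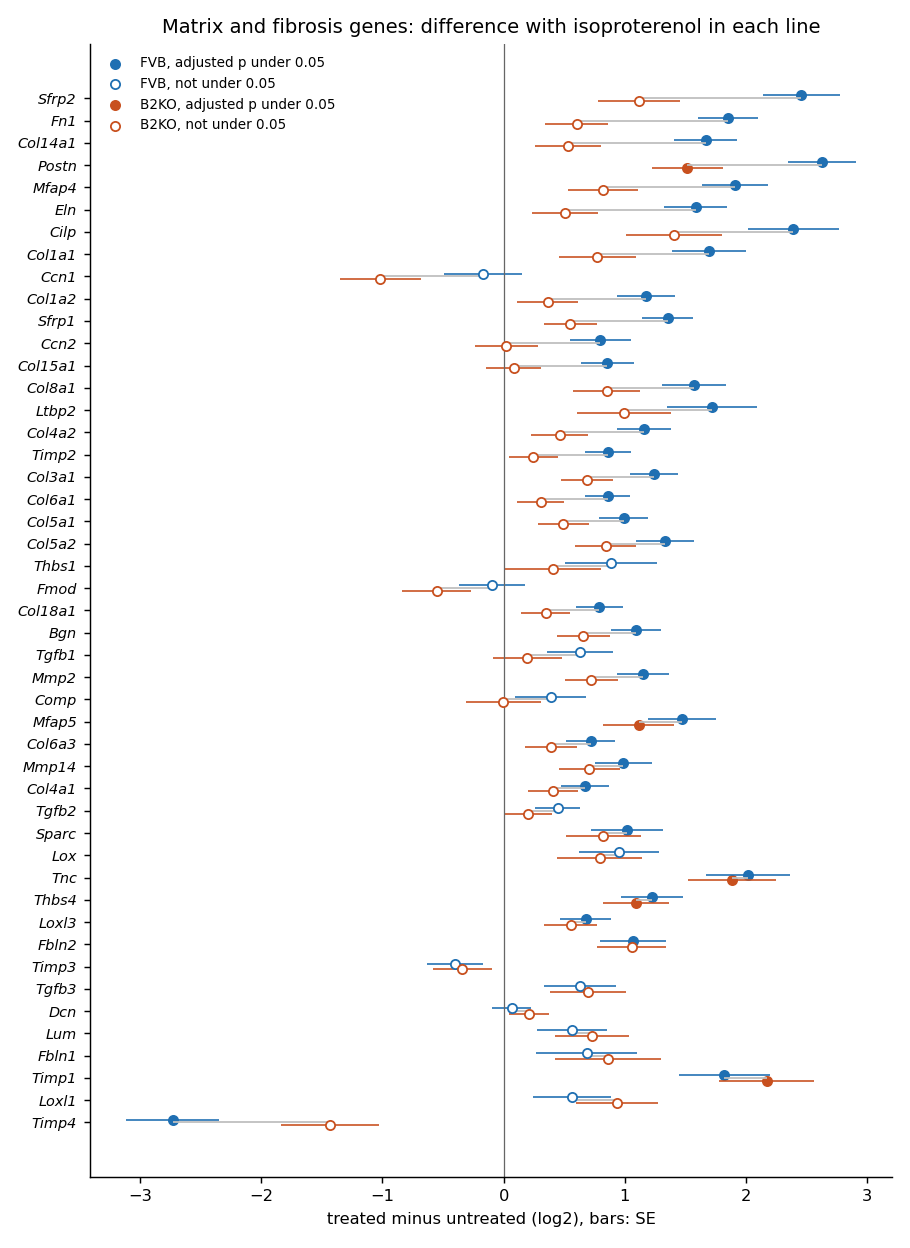
Treated minus untreated difference in log2 for the 47 matrix and fibrosis genes tested, FVB in blue and B2KO in orange, with bars of 1 SE, ordered by the difference between the lines; filled points have a limma adjusted p under 0.05. In 39 rows the B2KO point lies left of the FVB point, and Timp1, Tnc and Thbs4 are filled in both lines at similar values.

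Rad51b, a recombination protein gene, had the largest rise in FVB, from −2.48, −1.47 and 0.77 untreated to 1.05, 2.82 and 4.16 treated. In B2KO it went from −2.38, −1.51 and 0.74 to −2.80, 2.37 and 3.87. Here 5 treated B2KO arrays lay at 2.37 or above and the other 4 at −1.50 or below, within or under the untreated range. It rose by 4.21 ± 0.48 in FVB and 1.98 ± 0.50 in B2KO, with −2.23 ± 0.70 between the lines, which did not pass. A second, dim probe set showed 0.09 ± 0.44.

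Of the 14 leading genes with the higher response in B2KO, 6 fell in FVB by the test, as 1.8% of all genes did. In B2KO 0 rose or fell (0.166% and 0.349% of all genes). The 14 were chosen by the difference between the lines, in which a fall in FVB counts as a higher response in B2KO. The 6 are thus no separate result. Cngb3, a subunit of the cyclic nucleotide-gated channel of cone cells, ran through −1.20, 0.82 and 1.83 in untreated and −1.85, −1.23 and −0.12 in treated FVB (lowest, median and highest). In B2KO it ran through −0.89, 0.35 and 2.10 untreated and −1.18, −0.04 and 1.86 treated. In FVB 6 of 11 treated arrays lay below every untreated one, and in B2KO 1 of 9 did. Cngb3 fell by 1.94 ± 0.32 in FVB (limma adjusted p = 1.09e-05), the difference in B2KO was −0.15 ± 0.33, and that between the lines 1.80 ± 0.46 (limma adjusted p = 0.310). It was one of 3 genes, with Hsd11b1 and Tmem184c, named here after their values were seen, that passed when treated B2KO replicate 7, untreated B2KO replicate 8 and untreated FVB replicate 10 were left out and arrays were centred on their genes (2.13). With array weights Cngb3 passed as well (limma adjusted p = 0.044), as did Top2a and other genes listed in the last section. Gnb3, a G protein beta subunit, fell by 1.90 ± 0.30 in FVB, with all 11 treated arrays below every untreated one, from 1.23 to 2.17 untreated to −0.96 to 0.42 treated. In B2KO, 6 of 9 treated arrays lay below all untreated ones, and the difference between the lines was 1.33 ± 0.44. The splicing factor gene Smu1, the mitochondrial gene Msto1 and the actin regulator gene Eps8l2 fell in FVB by 0.74 ± 0.17, 0.98 ± 0.24 and 1.00 ± 0.26, and in B2KO their differences were 0.01 ± 0.18, 0.04 ± 0.25 and 0.13 ± 0.27. H2-DMb2, which loads peptides on class II antigens, differed by 1.44 ± 0.48 without a change in either line alone. Its other probe sets, of nearly the same level, gave −0.35 ± 0.36 and 0.52 ± 0.47. H2-DMb2 had a mean above the array median only in treated B2KO, and Eps8l2 and Gpr85 only in untreated FVB. They were tested through those groups.

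Plet1os, a transcript opposite to Plet1, had the largest estimate of these 14 at 3.33 ± 1.01, and the lines differed before treatment. It stood at 5.34 to 7.22 in untreated FVB and −1.92 to 5.80 in untreated B2KO (median 4.24), a baseline difference of −3.67 ± 0.71 (limma adjusted p = 0.0097). Untreated B2KO was split. Replicates 2, 4, 8 and 10 lay below the array median, at −1.11, −1.92, −0.64 and −0.37, and the others at 4.24 to 5.80. The baseline difference thus does not describe every untreated B2KO heart alike. Treated levels overlapped, at 4.69 to 5.82 in FVB and 2.23 to 6.41 in B2KO. The remaining leading genes of this direction, Lce1d, Rftn1, Gpr85, Tmem89, Sephs2, Cnksr1 and Pibf1, differed by 0.80 to 1.38, with limma adjusted p from 0.383 to 0.555. Other probe sets were nearer to 0 for Sephs2 (0.10 ± 0.35 and −0.25 ± 0.30), Pibf1 (0.15 ± 0.34 and 0.36 ± 0.33) and Gpr85 (0.38 to 0.45). In the 36 arrays without Rag1 above 2, the fall of Gpr85 in FVB did not pass (limma adjusted p = 0.111).

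**Figure D5:**
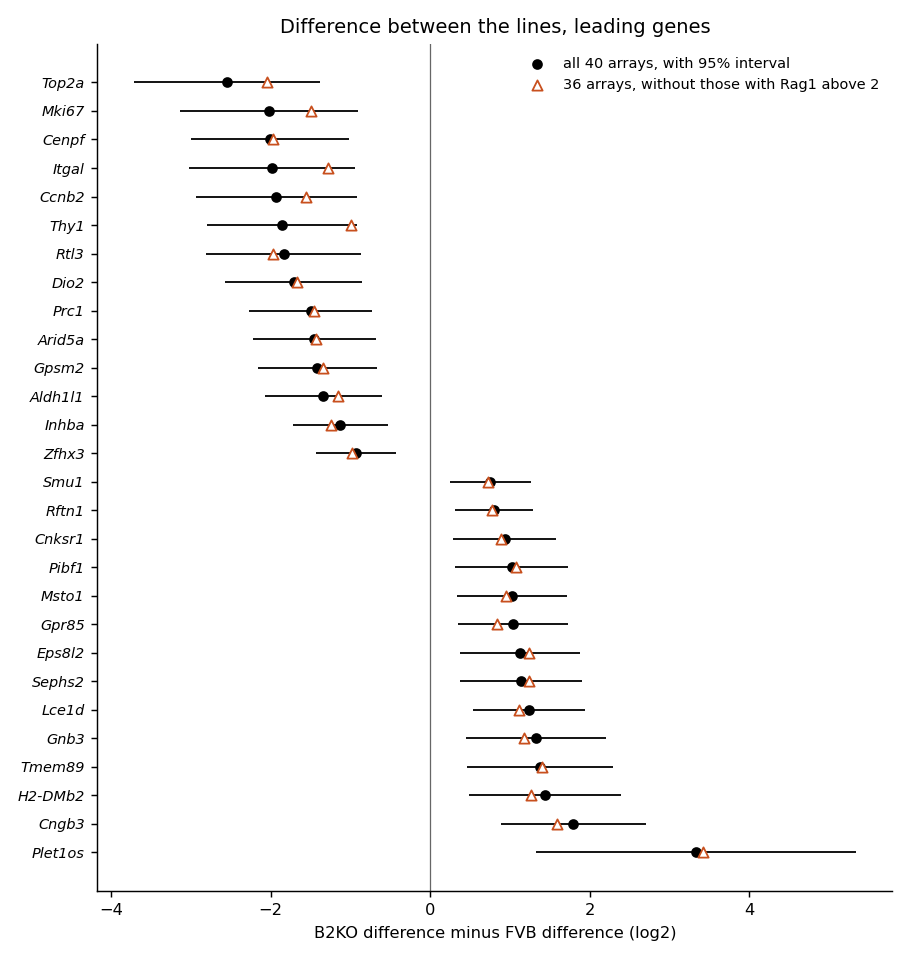
Difference between the lines' responses in log2 for the 14 leading genes of each direction; black points and lines are estimates and 95% intervals over 40 arrays, and open triangles are estimates over the 36 arrays without Rag1 above 2. The triangles of Thy1, Itgal, Top2a, Mki67 and Ccnb2 lie clearly nearer to 0 than the points, and none of these genes passed the adjusted threshold.

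Of 17 clock genes tested, 2 were lower and 4 higher in B2KO at an unadjusted p under 0.05 (4.97% and 1.19% of all genes), and 0 passed the adjusted threshold. Arntl, the activator at the head of the clock, had levels of 0.03, 1.46 and 2.87 in untreated and 1.62, 2.63 and 3.85 in treated FVB (lowest, median and highest). B2KO had 0.54, 2.47 and 3.60 untreated and 0.28, 2.49 and 3.34 treated, the same range. It rose by 1.23 ± 0.30 in FVB, and the difference between the lines was −1.51 ± 0.44 with a second, dim probe set at −0.93 ± 0.47. Its relative Npas2 differed by −0.98 ± 0.43. Dbp, a clock output in antiphase to Arntl, fell by 1.70 ± 0.48 in FVB, stood at 0.03 ± 0.50 in B2KO and differed by 1.73 ± 0.69, with 1.55 ± 0.61 on a second probe set. Per2, Ciart and Tef, which peak near Dbp, differed by 1.24 ± 0.59, 1.12 ± 0.49 and 0.54 ± 0.27. In the 36 arrays without Rag1 above 2, the unadjusted p of Ciart and Tef was 0.053 and 0.058. The clock repressors Per1, Per3, Nr1d1 and Nr1d2 differed by 0.15 ± 0.50, 0.43 ± 0.46, 0.24 ± 0.52 and 0.36 ± 0.33. Levels of Dbp spanned 3.60 to 7.66 within untreated FVB and 2.08 to 7.88 within untreated B2KO. The labels give no hour at which hearts were taken, and the part of that hour was not tested.

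Few genes of the beta-adrenergic pathway itself had a small p. Of 26 tested, 25 lay below 0 (7226 of 11449 over all genes), with a median of −0.31 (−0.11), and 3 were lower at an unadjusted p under 0.05 (4.97% of all genes). None passed the adjusted threshold. With arrays centred on their genes 21 of 26 lay below 0 with a median of −0.20, and 1 gene was lower. These were the phosphodiesterase gene Pde4b (−0.77 ± 0.30), the receptor kinase gene Grk5 (−0.68 ± 0.33) and the inhibitory G protein gene Gnai2 (−0.56 ± 0.27). A second, bright probe set of Gnai2 gave 0.11 ± 0.37, and without the 4 arrays with Rag1 above 2 Gnai2 was at −0.37 ± 0.28 (unadjusted p = 0.184). Grk5 rose by 0.94 ± 0.23 in FVB, as did Pde4d by 0.74 ± 0.20, and 0 of 26 changed in B2KO. Pde4b had 3.11, 4.01 and 5.10 in untreated and 3.54, 4.75 and 5.31 in treated FVB, and 3.70, 4.36 and 5.14 and 2.82, 4.25 and 4.81 in B2KO, so the groups overlapped in both lines. Its 5 other probe sets gave −0.57 to 0.86, and with all averaged the difference between the lines turned to 0.02.

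The calcium pump gene Atp2a2 and its inhibitor gene Pln differed by −0.10 ± 0.26 and 0.03 ± 0.25, and the natriuretic peptide genes Nppa and Nppb by 0.05 ± 0.24 and −0.15 ± 0.45. The 95% intervals of Atp2a2, Pln and Nppa lay within ± 0.61, and that of Nppb ran from −1.04 to 0.75. Without the 4 arrays with Rag1 above 2, Atp2a2 was at −0.33 ± 0.26 and Pln at −0.19 ± 0.26. Nppa then was at −0.10 ± 0.26 and Nppb at −0.51 ± 0.46. Signs of these small values turned under other settings, Atp2a2 with centred arrays and with quantile normalization (0.02 and 0.04) and Nppb with quantile normalization (0.05). Of 28 hypertrophy and sarcomere genes, 0 passed the adjusted threshold and 2 had an unadjusted p under 0.05, both higher (1.19% of all genes): Myh7, the slow myosin heavy chain (1.41 ± 0.61), and Acta1, the skeletal actin of stressed and fetal heart (1.23 ± 0.59). Without the 4 arrays with Rag1 above 2 Acta1 was at 1.00 ± 0.63 (unadjusted p = 0.115). Acta1 fell by 1.62 ± 0.40 in FVB, from 6.89, 9.09 and 9.86 to 5.79, 7.20 and 8.80, with 3 of 11 treated arrays below all untreated ones. In B2KO it had 6.04, 8.55 and 9.55 untreated and 6.41, 7.77 and 10.31 treated. Myh7 was as high as 10.32 in untreated FVB replicate 10, the array with the Gapdh difference of 2.06. Of 19 calcium cycling genes 0 passed and 2 were lower at an unadjusted p under 0.05 (4.97% of all genes), the release channel genes Ryr2 (−0.63 ± 0.30) and Itpr2 (−1.05 ± 0.51). A brighter probe set of Itpr2 gave −0.54 ± 0.31, and without the 4 arrays its p was 0.069. Cacna1g, a T-type calcium channel, fell in B2KO by 1.60 ± 0.33 against a difference of −0.77 ± 0.32 in FVB.

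Few metabolic genes differed. Of 32 fatty acid genes 4 fell in FVB and 2 in B2KO (background 1.8% and 0.349%), with medians of −0.30 and −0.48, and the median difference between the lines was −0.07. Acot1, which fell in both, and the peroxisomal thiolase gene Acaa1a were higher at an unadjusted p under 0.05 (1.19% of all genes), by 0.92 ± 0.39 and 0.81 ± 0.31. Medians were −0.16 for 33 oxidative phosphorylation genes, −0.12 for 17 genes of the tricarboxylic acid cycle and −0.08 for 21 of glucose metabolism, with 0, 0 and 1 gene at an unadjusted p under 0.05. That gene was Hk1, a hexokinase (−0.51 ± 0.23, and 0.03 ± 0.77 on a second probe set). It rose by 0.58 ± 0.16 in FVB. No gene of oxidative phosphorylation or the tricarboxylic acid cycle changed in either line, while 2 glucose genes rose and 1 fell in FVB and 1 fell in B2KO.

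No immune gene passed the adjusted threshold for the difference between the lines, and counts here are at an unadjusted p under 0.05 (4.97% of all genes lower, 1.19% higher). Of 22 interferon response genes 2 were lower, the antiviral gene Rsad2 (−0.98 ± 0.48) and the class I antigen gene H2-K1 (−0.86 ± 0.34), and they rose in FVB by 1.16 ± 0.33 and 0.85 ± 0.23. Their differences in B2KO were 0.18 ± 0.35 and −0.01 ± 0.25. With the 4 arrays with Rag1 above 2 left out, Rsad2 was at −0.81 ± 0.52 (unadjusted p = 0.121), and its rise in FVB did not pass (limma adjusted p = 0.116). Of 20 macrophage and monocyte genes 1 was lower, the lectin receptor gene Clec4n (−0.87 ± 0.41), which rose in both lines by 2.27 ± 0.28 and 1.40 ± 0.30. The complement gene C1qb (0.79 ± 0.38) and the Fc receptor gene Fcgr1 (0.80 ± 0.40) were higher. Of 16 chemokine and cytokine genes Cxcl12 was lower (−0.59 ± 0.28, and −0.14 ± 0.25 on a second probe set). Among 22 immediate early genes, 19 heat shock genes and 20 antioxidant genes 0 had an unadjusted p under 0.05, with medians of −0.32, −0.11 and 0.00. Markers of other cells that a dissected heart can carry varied too. All 8 adipocyte markers tested lay below 0, where 7226 of 11449 genes did, with a median of −0.75 against −0.11 over all genes. None had an unadjusted p under 0.05. Their summed level had medians of 1225 and 1233 in untreated and treated FVB and 1146 and 973 in B2KO. Of 3 melanocyte markers tested 1 was lower, and 13 endothelial and 11 smooth muscle and pericyte markers had medians of −0.06 and 0.08 with 1 lower each. Of 3 lung epithelium markers 1 was higher, while the other 2 lay below 0 and the median was −1.29. The summed level of lung markers reached 201 in untreated B2KO and 52.5 in treated FVB. It was at most 9.34 in untreated FVB and 7.41 in treated B2KO, and its part was not tested.

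Compared directly, treated B2KO and treated FVB hearts differed in 15 genes (0.131%), 11 lower (0.0961%) and 4 higher (0.0349%) in B2KO, and untreated hearts in 7 (0.0611%). The lower ones included Dio2 (−1.59 ± 0.31), Prc1 (−1.39 ± 0.27), Top2a (−1.87 ± 0.42), Ccnb2 (−1.62 ± 0.36), Cenpf (−1.54 ± 0.35), Gpsm2 (−1.22 ± 0.27), Rad51b (−2.14 ± 0.49), Clec4n (−1.66 ± 0.29) and Clec4d (−1.53 ± 0.35), with limma adjusted p from 0.0017 to 0.0292. This comparison uses the treated arrays of the difference between the lines and is not independent of it. None of the 15 was among the 7 genes of the untreated comparison. With lists this short an overlap was unlikely beforehand, so this does not show that the 15 were alike in untreated hearts. Clec4d, for example, differed by −0.22 in response against −1.53 between treated hearts, and Top2a by −2.55 against −1.87. In the 36 arrays without Rag1 above 2, the count was 2 in place of 15, and without treated B2KO replicate 7 it was 4.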

How the data were processed

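RNA of mouse hearts was hybridised to Affymetrix arrays from 10 µg of total RNA per sample, per the labels' protocols. The deposited values are linear intensity per probe set; per the submitters' processing notes GCRMA was used, and its version is not given in the sources used here. Each array's deposited intensity had a median of 1. Values were taken to log2, 1 probe set per gene was kept (the highest mean), and 11449 genes with a group mean above log2 0 in FVB or B2KO were tested. Limma 3.58.1 (R 4.3.3) was fitted on 83 arrays in 8 groups, two-sided, with Benjamini-Hochberg adjustment at 0.05. Of 45101 probe sets, 34945 had 1 gene symbol and 932 had several and were not used. Replicates are separate mice as far as the labels say, so p-values measure the spread between these samples. Same-numbered samples of different groups correlated by −0.06 to 0.04 on average, so numbers were not treated as pairs. The members and lists were chosen with earlier results of these data known. Genes were named as the 14 with the smallest p in each direction (Riken, Gm, LOC and clone names passed over), a set of fixed genes, and up to 4 genes per list with the smallest p; others named here were added after their values were seen, as was the thymocyte list. The 14 planned and 6 added settings beside leave-one-out included scaling, filters, probe set choice, arrays kept or left out, array weights and the replicate block. The limma code was tested on simulated data.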

Additional observations from a re-analysis of the deposited data

Results flagged for a closer look

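Single arrays that stood apart from their group were sought for 68 genes in 204 gene-by-group sets, by the gap to the nearest array over the group's range, in groups of 10 arrays or fewer. Chance gives about 1 in 20 such groups, and 26 pairs of a gene and an array were found, several of them on the same array. Untreated B2KO replicate 8, the array with the large Gapdh difference, stood apart at Inhba (2.42), Aldh1l1 (−0.81), Hamp (7.35), Timp1 (−0.44), Col14a1 (4.66), Acaa1a (3.10) and Acot1 (4.03). Treated B2KO replicate 7 did at Mki67 (−0.87), Rftn1 (5.14), Cxcl12 (5.54), Grk5 (2.56) and Pde4b (2.82). Untreated B2KO replicate 5, one of the arrays with Rag1 above 2, did at Thy1 (4.84) and Itgal (2.55). Untreated FVB replicate 10 did at Pibf1 (−0.75) and Myh7 (10.3), untreated B2KO replicate 1 at Pibf1 (−0.41) and Cxcl12 (5.32), and untreated B2KO replicate 2 at Myh6 (12.5) and Hk1 (7.24). Treated B2KO replicate 11 stood apart at Myh6 (12.6) and Atp2a2 (11.5), replicate 6 at Thy1 (2.99) and replicate 2 at Plet1os (2.23). Untreated B2KO replicate 9 did at Prc1 (−1.75) and untreated FVB replicate 7 at Itgal (1.06).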

How the results depend on the processing

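The number of genes with a limma adjusted p under 0.05 for the difference between the lines stayed at 0 in each leave-one-out fit and in all but 2 of the settings tried, array weights (45 genes, 7 higher and 38 lower) and the setting without arrays in doubt with centring (3 genes). With the replicate block, whose consensus correlation was −0.01, it was 0, with 689 genes at an unadjusted p under 0.05. The block moved none of the counts below by over 1.5 times. Among the 45 genes with array weights were Top2a, Prc1, Ccnb2, Zfhx3, Cngb3, Rftn1, H2-DMb2 and Acaa1a, with limma adjusted p from 0.020 to 0.044.

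Counts of changed genes in FVB, B2KO, untreated and treated comparisons were 576, 59, 7 and 15. Leaving out 1 array gave 454 to 743, 24 to 160, 1 to 15 and 4 to 38. Keeping the failed array gave 296, 278, 2 and 42, and averaging the duplicate with the failed and strain arrays kept gave 180, 259, 2 and 3; the strain array alone left 3 treated. Without the 3 arrays in doubt (treated B2KO replicate 7, untreated B2KO replicate 8 and untreated FVB replicate 10) B2KO had 112, untreated 2 and treated 5, and without the female array, untreated B2KO replicate 1, untreated had 12. Quantile normalization gave 1460, 218, 24 and 68, centring 1108, 195, 18 and 31, and the 4 groups alone 320, 17, 4 and 5. Array weights gave 1923, 1168, 123 and 96. No filter gave 37 in B2KO and 4 untreated, a stricter filter 3 untreated and 8 treated, and averaged probe sets 4 untreated. Chosen after seeing the data were the settings without the 4 arrays with Rag1 above 2 (treated 2), the same with centring (B2KO 244, untreated 21, treated 8), the same without arrays in doubt (B2KO 141, untreated 1, treated 2), centring with 4 groups (treated 4), centring without arrays in doubt (FVB 1892, B2KO 479, untreated 33, treated 25), and without the 3 arrays with a Gapdh difference above 1 (untreated 1, treated 25).

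Among the named genes 8 changed sign, and all of these but Pde4b and Dct were within 0.15 of 0. Atp2a2 was 0.079 with the failed array, 0.11 with the duplicate averaged, 0.040 by quantiles, 0.022 centred and centred with 4 groups, 0.13 with weights 0.068 centred without arrays in doubt and 0.0058 without the Gapdh arrays. Nppa was −0.59 with the failed array, −0.54 with the duplicate averaged, −0.020 without arrays in doubt, and −0.10 or, also without arrays in doubt, −0.19 without the Rag1 arrays. Lgals3 was −0.18 in both settings with the failed array. Nppb was 0.047 by quantiles and 0.055 centred without arrays in doubt. Tnc was 0.056 with the strain array, 0.15 without arrays in doubt, 0.27 centred as well, 0.14 with averaged probe sets, and 0.33, 0.47 centred and 0.64 without arrays in doubt when the Rag1 arrays were left out, where Pln was −0.19, −0.048 and −0.077. Dct was 0.051 with the duplicate averaged, 0.26 without arrays in doubt, 0.38 centred as well, 0.71 with weights 0.39 without the Rag1 arrays and those in doubt and 0.20 without the Gapdh arrays. Pde4b, at −0.77 otherwise, was 0.017 with averaged probe sets. Leaving out 1 array gave −0.050 to 0.13 for Pln, −0.040 to 0.14 for Nppa, −0.20 to 0.23 for Lgals3, −0.66 to 0.0032 for Dct and −0.33 to 0.17 for Tnc. The cause of these shifts was not tested. The number of mice limited precision, with a median SE of 0.32.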
